A study of Homo sapiens with 6 samples.

Results

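Complex I (NADH:ubiquinone oxidoreductase) was followed through 50 nuclear genes, 36 that encode its subunits and 14 that encode assembly factors, among the 28395 gene IDs of the count files. They were taken by name, as nuclear subunits and assembly factors of the complex, by a rule that holds no expression value though it was drawn up with earlier results of these data known, and all 50 had an ID in the files. The libraries came from HCT116 cells, a line established from a human colorectal carcinoma, in 2 groups. The treated group (3 libraries) was given 50 nM TR-107, a small-molecule agonist of the mitochondrial matrix protease ClpP, and the control group (3 libraries) the vehicle, 0.1% DMSO, each for 24 h. Poly(A)-selected RNA was sequenced, and the series asks how the drug changes the transcriptome of these cells. The labels give no genetic change in either group. All libraries are of this line alone. The design text speaks of biological replicates and does not describe the cultures, so p-values here reflect library-to-library spread, which may be partly technical.

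Complex I is the entry point of electrons from NADH into the respiratory chain. Its matrix arm is built from the N module, which oxidises NADH, and the Q module, which passes electrons through iron-sulfur clusters to ubiquinone. Its membrane arm pumps protons and is put together from the ND1, ND2, ND4 and ND5 modules, each formed around hydrophobic subunits that mitochondrial DNA encodes. Core subunits carry the redox centres and the proton channels, accessory subunits surround and stabilise them, and assembly factors join the modules and leave before the enzyme is finished. ClpP degrades matrix proteins, among them the peripheral subunits of damaged complex I.

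Libraries held 17264039 to 23708135 gene counts, and the 50 genes took 0.293% to 0.302% of them in DMSO and 0.243% to 0.249% in TR-107. The stress genes ASNS, SESN2, TRIB3, DDIT3, CHAC1 and ATF4, a known response to this class of compound, were all called higher, by 0.96 to 4.24 on the log2 scale, and CLPP itself was called lower, at -0.32. Of 8 epithelial markers, 6 were expressed (KRT8 at 2646 and EPCAM at 381 CPM in DMSO), whereas CDX1 was at 0 and VIL1 near 0. Of 13 markers of other lineages, PTPRC, CD3E and MYH7 were among those with no count in any library, and CD68 (5.57 and 11.8 CPM in DMSO and TR-107) and COL1A1 (14.3 and 17.2 CPM) were the only ones that passed the filter. Their part in the results was not tested. CPM are counts scaled to 1e+06 per library, with TMM factors between libraries.

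The genes on which the results turn are introduced with their promoters, as they stand in RefSeq on GRCh38.p14. Each window runs 5′ to 3′ on the gene's own strand, from 250 bases before the annotated start to 30 from the start onward, so it holds the upstream region and the beginning of the first exon. Capitals mark exact matches, on either strand, to 3 motifs of factors known for respiratory chain genes, namely GCGCANGC (NRF1), CCGGAAG (the ETS family, to which GABPA belongs) and AAGATGGC (YY1), and to TGATGNAA (the ATF4/CHOP element of stress genes). NDUFB3 had the lowest fold change of all members, NDUFAB1 the lowest p, NDUFS3 the lowest fold change of a core subunit, and NDUFS4 and TIMMDC1 were the only members called higher under every setting tried. The windows are chr2:201071751-201072030 (+) for NDUFB3, chr16:23596287-23596566 (-) for NDUFAB1, chr11:47578824-47579103 (+) for NDUFS3, chr5:53560389-53560668 (+) for NDUFS4 and chr3:119498297-119498576 (+) for TIMMDC1.
NDUFB3: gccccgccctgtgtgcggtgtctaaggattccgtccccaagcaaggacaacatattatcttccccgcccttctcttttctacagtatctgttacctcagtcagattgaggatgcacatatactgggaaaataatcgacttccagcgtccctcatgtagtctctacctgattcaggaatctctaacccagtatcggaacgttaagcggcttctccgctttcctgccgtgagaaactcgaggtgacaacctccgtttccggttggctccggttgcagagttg
NDUFAB1: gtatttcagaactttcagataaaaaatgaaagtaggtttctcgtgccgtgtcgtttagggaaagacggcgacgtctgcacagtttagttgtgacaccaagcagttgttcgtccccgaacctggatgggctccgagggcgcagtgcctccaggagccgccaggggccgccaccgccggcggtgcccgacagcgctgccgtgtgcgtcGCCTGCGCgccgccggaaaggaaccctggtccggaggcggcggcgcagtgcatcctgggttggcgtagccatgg
NDUFS3: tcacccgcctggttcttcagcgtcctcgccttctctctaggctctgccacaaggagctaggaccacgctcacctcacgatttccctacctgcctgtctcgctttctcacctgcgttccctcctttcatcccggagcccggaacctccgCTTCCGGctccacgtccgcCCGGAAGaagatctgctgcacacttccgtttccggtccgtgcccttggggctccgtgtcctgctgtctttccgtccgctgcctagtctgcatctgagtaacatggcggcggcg
NDUFS4: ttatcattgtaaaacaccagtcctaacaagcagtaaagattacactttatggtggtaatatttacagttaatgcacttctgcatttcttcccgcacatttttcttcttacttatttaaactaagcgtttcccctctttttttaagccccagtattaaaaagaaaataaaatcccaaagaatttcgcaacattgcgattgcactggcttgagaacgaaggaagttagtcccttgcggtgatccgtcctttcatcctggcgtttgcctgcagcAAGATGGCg
TIMMDC1: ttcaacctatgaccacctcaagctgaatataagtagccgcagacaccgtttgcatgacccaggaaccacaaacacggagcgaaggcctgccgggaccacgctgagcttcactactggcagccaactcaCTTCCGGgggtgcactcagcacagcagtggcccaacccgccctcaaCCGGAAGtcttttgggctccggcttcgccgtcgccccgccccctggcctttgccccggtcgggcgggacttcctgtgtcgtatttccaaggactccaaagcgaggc

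In these windows NDUFAB1 holds an NRF1 match that begins 44 bases before the start, on the opposite strand. NDUFS3 holds ETS matches that begin 102 and 83 bases before the start, and TIMMDC1 holds them at 122 and 76 bases. In NDUFS4 a YY1 match begins 21 bases after the start, and it includes an ATG. The NDUFB3 window has none of the 4 motifs, which says only that these letters are not in this window.

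After TR-107, subunit and assembly factor transcripts were more often lower than higher, by small amounts. Of the 48 members with enough counts to test, 25 were called lower, 4 higher and 19 were not called. A call is a Benjamini-Hochberg adjusted p below 0.05, over 13767 genes, in edgeR's quasi-likelihood test. In the same test 28.6% of all genes tested were called lower, 29.2% higher and 57.8% in either direction, so 52.1% of members called lower stands above the background and 8.33% called higher below it. None of the 48 changed by 2-fold, and 24 of the 29 called members changed by less than 1.5-fold. The 3 TR-107 libraries lay below all 3 DMSO libraries for 24 of the 48, against 30.9% of all genes tested. Summed over the 50 genes, the level was 2875, 2938 and 2899 CPM in the DMSO libraries and 2516, 2513 and 2518 CPM in the TR-107 libraries (replicates 1, 2 and 3). Every TR-107 sum was thus lower than every DMSO sum, at 86.6% of the DMSO mean. Because the values are shares of bulk RNA, fewer cells that express a gene and less of its RNA per cell cannot be told apart.

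Subunits and assembly factors were each more often lower than higher. Of 34 subunits tested, 17 (50.0%) were lower and 2 (5.88%) higher, with a median log2 fold change of -0.15 (range -0.74 to 0.55). Of 14 assembly factors, 8 (57.1%) were lower and 2 (14.3%) higher, with a median of -0.25 (range -0.54 to 0.30). The median over all genes tested was 0.01. The subunits' summed level fell from 2389 ± 24.3 to 2049 ± 11.1 CPM (SD, n = 3), which is 85.8% of DMSO. The assembly factors' sum fell from 515 ± 11.4 to 466 ± 8.89 CPM (SD, n = 3), which is 90.5%. Assembly factors therefore made up 17.4% to 18.0% of the members' summed CPM in DMSO and 18.1% to 18.8% in TR-107, ranges that do not overlap. Whether the lists as wholes differ was not tested.

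**Figure D1:**
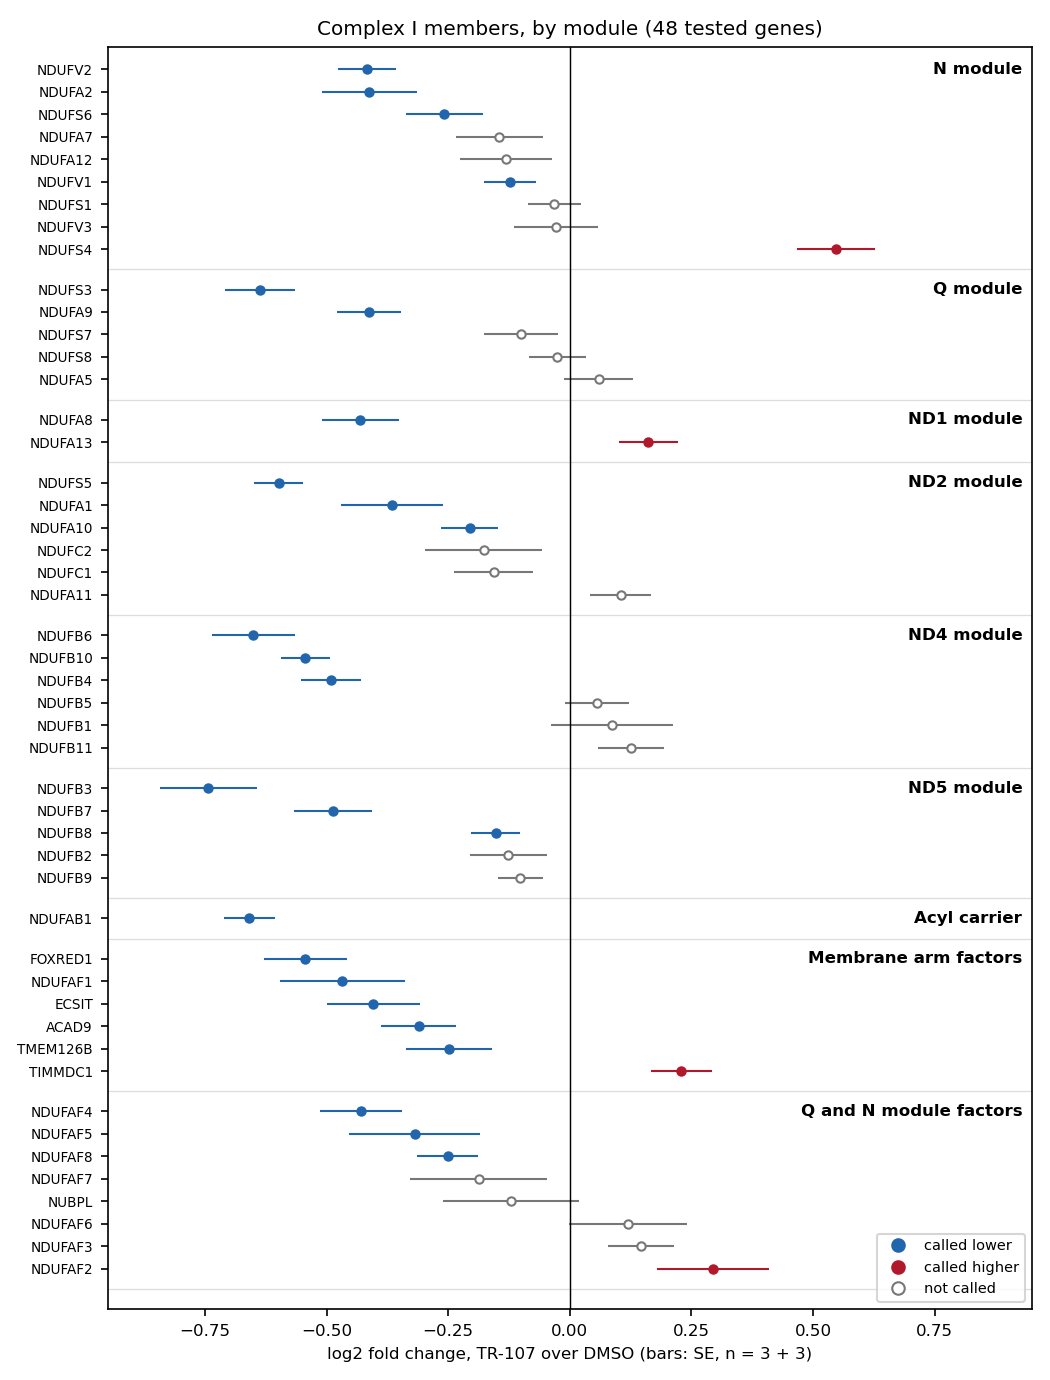
Log2 fold change (TR-107 over DMSO) of the 48 tested members on the horizontal axis, by module, with bars for the SE from 3 + 3 libraries; filled blue points were called lower, filled red points higher and open grey points not called. Each module with more than 2 tested genes holds both called and uncalled genes, except the membrane arm factors, where all 6 were called. Over all genes tested, 57.8% were called. NDUFS4 at 0.55 is the highest point and NDUFB3 at -0.74 the lowest.

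The N module, the NADH-oxidising tip of the matrix arm, had a mixed response. Of its 9 tested genes, 4 were lower (NDUFV2, NDUFA2, NDUFS6 and NDUFV1), 1 higher (NDUFS4) and 4 not called, with a median log2 fold change of -0.13. Shares here and in the other modules stand against 28.6% lower and 29.2% higher over all genes tested, and each module holds few genes. NDUFS4, an accessory subunit at the joint of the N and Q modules whose loss causes Leigh syndrome, was at 33.2, 33.9 and 37.3 CPM in DMSO and at 56.3, 49.5 and 47.3 CPM in TR-107. Every TR-107 library was above every DMSO library, and the rise was 1.46-fold (log2 fold change 0.55 ± 0.08 SE, edgeR adjusted p = 1.59e-07). The other subunit called higher, NDUFA13, rose by 0.16 on the log2 scale.

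Among the core subunits of this module, NDUFV2, which binds an iron-sulfur cluster next to the flavin, was at 93.6, 92.3 and 101 CPM in DMSO and at 72.2, 74.5 and 68.7 CPM in TR-107. The groups were separate (log2 fold change -0.42 ± 0.06 SE, edgeR adjusted p = 6.76e-08). Exons of AP005263.1 on the same strand cover 28.4% of the exonic length of NDUFV2, which has 1 annotated pseudogene. NDUFV1, its partner that holds the flavin mononucleotide, was at 119, 120.0 and 113 CPM in DMSO and at 103, 104 and 115 CPM in TR-107. Here the third TR-107 library lay inside the DMSO range. The call (log2 fold change -0.12 ± 0.05 SE, edgeR adjusted p = 0.0448) was lost under 7 of the alternatives, at an adjusted p of up to 0.170 without TR-107 replicate 2. NDUFS1, the largest core subunit, was at 105, 107 and 117 CPM in DMSO and at 103, 106 and 114 CPM in TR-107. Its groups overlapped throughout and it was not called (log2 fold change -0.03 ± 0.05 SE, edgeR adjusted p = 0.649). Of the 3 core genes in this module, then, NDUFV2 alone was called with separate groups.

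The other N module genes are accessory. NDUFA2, a thioredoxin-like subunit, was lower with separate groups (log2 fold change -0.41 ± 0.10 SE, edgeR adjusted p = 0.00039). NDUFS6, a zinc-binding subunit that enters late, was at -0.26 ± 0.08 (SE, edgeR adjusted p = 0.00467) with overlapping groups, and lost its call without DMSO replicate 2 (adjusted p = 0.0505). NDUFA7, NDUFA12 and NDUFV3 were not called, at -0.14, -0.13 and -0.03. For NDUFA12, the subunit that replaces the assembly factor NDUFAF2 in the finished enzyme, the TR-107 libraries (23.6 to 24.4 CPM) were all below the DMSO libraries (26.0 to 26.3 CPM), but the difference did not pass the test (edgeR adjusted p = 0.242).

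In the Q module, which carries the last iron-sulfur clusters before ubiquinone, 2 of 5 genes were lower and 3 not called (median log2 fold change -0.10). That median was -0.18 without DMSO replicate 3, -0.16 without TR-107 replicate 3, -0.054 without DMSO replicate 2 and -0.043 without TR-107 replicate 2. NDUFS3, a core subunit on which the module starts to form, was at 62.5, 69.1 and 62.4 CPM in DMSO and at 40.7, 39.5 and 44.4 CPM in TR-107. The highest TR-107 library was well under the lowest DMSO library, and NDUFS3 was 1.56-fold lower (log2 fold change -0.64 ± 0.07 SE, edgeR adjusted p = 3.69e-10). Its exons share 19.6% of their length with PTPMT1 on the same strand, so reads there could be assigned to either gene. The core subunits NDUFS7 and NDUFS8, which bind the clusters of the module, were not called. NDUFS7 was at 54.8, 61.1 and 49.9 CPM in DMSO and at 51.5, 47.4 and 55.6 CPM in TR-107. NDUFS8 was at 84.9, 79.4 and 80.3 CPM in DMSO and at 77.8, 77.9 and 84.3 CPM in TR-107. Both had overlapping groups, at log2 fold changes of -0.10 ± 0.08 and -0.03 ± 0.06 (SE, edgeR adjusted p = 0.266 and 0.738).

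The accessory genes of the Q module also split. NDUFA9, which sits where the arms meet, was at 71.9, 76.3 and 76.3 CPM in DMSO and at 50.9, 57.3 and 60.3 CPM in TR-107, with separate groups (log2 fold change -0.41 ± 0.07 SE, edgeR adjusted p = 9.27e-07). NDUFA5 was not called, at 0.06, and it has 12 annotated pseudogenes that could take or give reads. Over both arms, the 6 core subunits had 3 lower, 0 higher and a median of -0.11, and the 28 tested accessory subunits 14 lower, 2 higher and a median of -0.17.

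Around ND1, the membrane subunit next to the quinone site, NDUFA8 and NDUFA13 went in opposite directions. NDUFA8, a cysteine-rich subunit on the side of the intermembrane space, was at 56.4, 45.7 and 55.7 CPM in DMSO and at 38.8, 39.7 and 38.5 CPM in TR-107. Its groups were separate (log2 fold change -0.43 ± 0.08 SE, edgeR adjusted p = 1.03e-05). NDUFA13, also known as GRIM-19, was at 71.2, 67.3 and 67.4 CPM in DMSO and at 74.8, 80.1 and 75.3 CPM in TR-107. All TR-107 libraries were above the DMSO libraries by a small margin, 1.12-fold on average (log2 fold change 0.16 ± 0.06 SE, edgeR adjusted p = 0.0209). The call for NDUFA13 was lost with library size alone as the scale (adjusted p = 0.167) and without DMSO replicate 2, DMSO replicate 3 or TR-107 replicate 2 (adjusted p = 0.0785 to 0.106). NDUFA3 was not tested, being listed at 0 or 1 count in every library.

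In the ND2 module 3 of 6 genes were lower, 0 higher, and the median was -0.19. NDUFS5, a cysteine-rich subunit of the intermembrane space side, was at 140.1, 135 and 139 CPM in DMSO and at 92.3, 93.1 and 88.7 CPM in TR-107. The groups were far apart relative to their spread, and NDUFS5 was 1.51-fold lower (log2 fold change -0.60 ± 0.05 SE, edgeR adjusted p = 1.45e-13). It has 6 annotated pseudogenes. NDUFA1, a small X-linked subunit, was at -0.36 (edgeR adjusted p = 0.00289) with overlapping groups. NDUFA10, a relative of nucleoside kinases, was at -0.21 (edgeR adjusted p = 0.0027) with separate groups, and lost its call without TR-107 replicate 3 (adjusted p = 0.0553). NDUFC1, NDUFC2 and NDUFA11 were not called, at -0.16, -0.18 and 0.10.

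The ND4 module had a median of -0.22, and the genes in it fell into separate sets of 3. NDUFB6 was at 42.7, 40.7 and 43.6 CPM in DMSO and at 27.9, 28.6 and 24.6 CPM in TR-107, which was 1.57-fold lower (log2 fold change -0.65 ± 0.09 SE, edgeR adjusted p = 1.7e-08). NDUFB10, another cysteine-rich subunit, was at 137, 135 and 144 CPM in DMSO and at 97.4, 96.2 and 92.5 CPM in TR-107, which was 1.46-fold lower (log2 fold change -0.54 ± 0.05 SE, edgeR adjusted p = 2.77e-12). Neither gene had a TR-107 library near the DMSO range. NDUFB4 was also lower with separate groups, at -0.49 ± 0.06 (SE, edgeR adjusted p = 3.91e-09), with 12 annotated pseudogenes as a limit on that value. NDUFB5, NDUFB1 and NDUFB11 were on the other side of 0, at 0.06, 0.09 and 0.13, and none was called.

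In the ND5 module, at the tip of the membrane arm, 3 of 5 genes were lower and all 5 values were negative (median -0.15). NDUFB3, a single-pass membrane subunit, was at 28.3, 32.0 and 33.2 CPM in DMSO and at 19.6, 18.8 and 17.6 CPM in TR-107. No TR-107 library reached the DMSO range, and this was the lowest fold change among the members, 1.67-fold lower (log2 fold change -0.74 ± 0.10 SE, edgeR adjusted p = 1.98e-08). Exons of FAM126B on the opposite strand cover 19.8% of its exonic length. NDUFB7, cysteine-rich and facing the intermembrane space, was at -0.49 ± 0.08 (SE, edgeR adjusted p = 1.7e-06). NDUFB8, a subunit often probed on blots as a sign of assembled complex I, was at -0.15 ± 0.05 (SE, edgeR adjusted p = 0.00911), both with separate groups. NDUFB9 and NDUFB2 were not called, at -0.10 and -0.13. NDUFB9 lay near the threshold (edgeR adjusted p = 0.0567) and passed it under 5 alternatives.

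NDUFAB1 stands outside the modules, since this mitochondrial acyl carrier protein sits in both arms of the complex and also serves fatty acid synthesis and iron-sulfur cluster formation. It was at 128, 132 and 137 CPM in DMSO and at 84.4, 85.2 and 81.8 CPM in TR-107. The groups were far apart, and NDUFAB1 was 1.58-fold lower (log2 fold change -0.66 ± 0.05 SE, edgeR adjusted p = 2.02e-14).

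By summed CPM, every module was lower in TR-107 than in DMSO on average. Relative to the DMSO mean, TR-107 stood at 63.4% for NDUFAB1, 81.0% for the ND4 module, 84.7% for ND2, 86.4% for Q, 87.0% for ND5, 92.0% for N and 95.5% for ND1. For the ND4 module the sums were 388, 387 and 392 CPM in DMSO and 323, 314 and 308 CPM in TR-107, with no overlap. The ND1 module was the exception in overlap, since its DMSO libraries differed by an SD of 6.15% of their mean, more than the difference between groups. The matrix arm had 6 lower and 1 higher of 14 tested (median -0.13), and the membrane arm 10 lower and 1 higher of 19 (median -0.18).

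**Figure D2:**
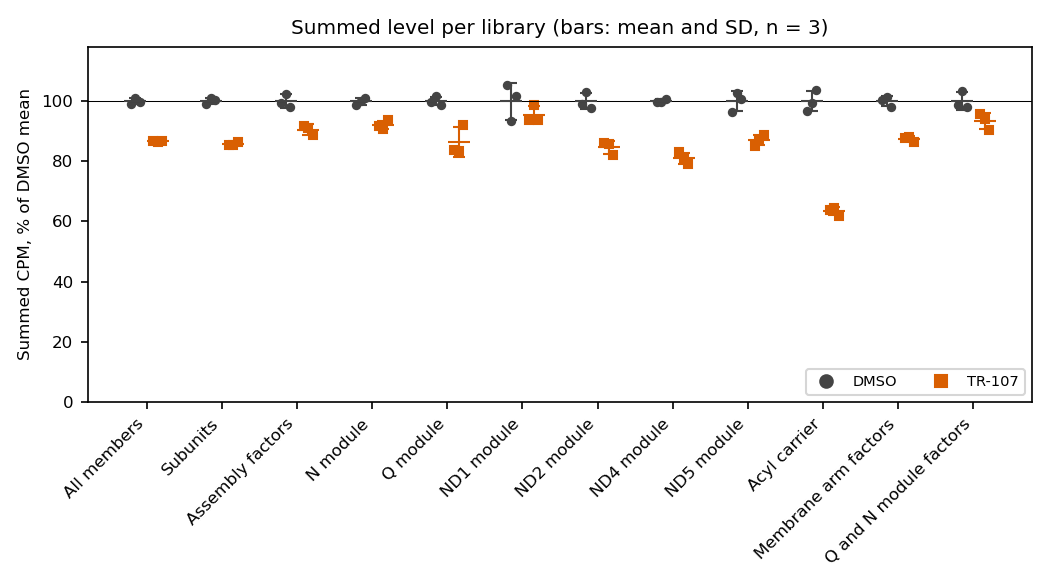
Summed CPM of each list in each library as a percentage of its DMSO mean, with grey circles for DMSO, orange squares for TR-107 and bars for the mean and SD of 3 libraries; the vertical axis starts at 0. The acyl carrier NDUFAB1 is lowest at 63.4%, the ND4 module follows at 81.0%, and the ND1 module, whose groups overlap, is at 95.5%.

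The 6 membrane arm assembly factors among the members were all called, 5 lower and 1 higher, with a median of -0.36. Over all genes tested, 57.8% were called, 28.6% lower and 29.2% higher, and 6 genes are few to set against these shares. The mitochondrial complex I intermediate assembly (MCIA) complex, which builds the ND2 module, had 4 genes among the members, and these 4 were lower. Of genes outside the members that are tied to this complex, COA1 was lower (-0.27) and TMEM186 was not called (-0.16, edgeR adjusted p = 0.324). NDUFAF1, its founding member, was at 15.0, 17.3 and 17.8 CPM in DMSO and at 10.8, 12.8 and 12.6 CPM in TR-107. ECSIT, also known from innate immune signalling, was at 34.7, 37.9 and 34.0 CPM in DMSO and at 31.5, 25.8 and 23.5 CPM in TR-107. Both had separate groups, narrowly so for ECSIT, with log2 fold changes of -0.47 ± 0.13 and -0.40 ± 0.10 (SE, edgeR adjusted p = 0.00192 and 0.000363). ACAD9, an acyl-CoA dehydrogenase relative that turned into an assembly factor, was at 58.1, 55.5 and 49.5 CPM in DMSO and at 41.1, 41.8 and 48.1 CPM in TR-107. TMEM126B, the membrane anchor, was at 36.0, 37.7 and 35.7 CPM in DMSO and at 30.1, 34.5 and 27.6 CPM in TR-107. For these genes the nearest libraries of the groups were little more than 1 CPM apart, and the log2 fold changes were -0.31 ± 0.08 and -0.25 ± 0.09 (SE, edgeR adjusted p = 0.000631 and 0.0153). TMEM126B lost its call without DMSO replicate 2 (adjusted p = 0.0506) and without TR-107 replicate 3 (adjusted p = 0.112).

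The remaining membrane arm factors moved apart. FOXRED1, a flavin-dependent oxidoreductase of the ND4 stage, was at 46.2, 45.1 and 39.1 CPM in DMSO and at 30.2, 30.7 and 28.5 CPM in TR-107. It was 1.46-fold lower with separate groups, the lowest fold change of the assembly factors (log2 fold change -0.54 ± 0.09 SE, edgeR adjusted p = 5.71e-07). TIMMDC1, a membrane protein needed for the ND1 module, was at 64.4, 63.2 and 72.3 CPM in DMSO and at 78.3, 77.4 and 78.7 CPM in TR-107. All TR-107 libraries were above the DMSO range, 1.17-fold on average (log2 fold change 0.23 ± 0.06 SE, edgeR adjusted p = 0.00166). CD80 exons on the opposite strand cover 29.2% of the exonic length of TIMMDC1.

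Of the 8 factors that serve the Q and N modules, 3 were lower, 1 higher and 4 not called, with a median of -0.15. That is 37.5% lower and 12.5% higher, against 28.6% and 29.2% of all genes tested, and 8 genes are few for this. NDUFAF4, which pairs with NDUFAF3 on the early Q module, was at 42.2, 40.9 and 41.3 CPM in DMSO and at 33.4, 30.8 and 28.3 CPM in TR-107. The groups were separate (log2 fold change -0.43 ± 0.08 SE, edgeR adjusted p = 2.86e-05). Its partner NDUFAF3 was not called, at 0.15 ± 0.07 (SE, edgeR adjusted p = 0.064), although its TR-107 libraries (65.3 to 67.6 CPM) were all above the DMSO libraries (53.8 to 64.8 CPM). NDUFAF2, which docks the N module, was at 17.3, 19.1 and 24.5 CPM in DMSO and at 22.1, 24.8 and 27.9 CPM in TR-107. The groups overlapped. Its call as higher (log2 fold change 0.30 ± 0.11 SE, edgeR adjusted p = 0.0267) was lost under 6 alternatives, at 0.0554 to 0.227, among them the omission of DMSO replicate 1 or 2 or TR-107 replicate 2 or 3.

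NDUFAF8 and NDUFAF5 work as a pair, the first stabilising the other, which hydroxylates an arginine of NDUFS7. NDUFAF8 was at 83.9, 88.0 and 84.4 CPM in DMSO and at 78.6, 72.2 and 64.9 CPM in TR-107, with separate groups (log2 fold change -0.25 ± 0.06 SE, edgeR adjusted p = 0.000705). NDUFAF5 was at -0.32 ± 0.14 (SE, edgeR adjusted p = 0.0412), and lost its call under 5 alternatives, among them leaving out DMSO replicate 2 or 3 or TR-107 replicate 1 or 3 (adjusted p = 0.0883 to 0.154). NDUFAF7, a methyltransferase of the Q module, NUBPL, which delivers iron-sulfur clusters, and NDUFAF6 were not called, at -0.19, -0.12 and 0.12.

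**Figure D3:**
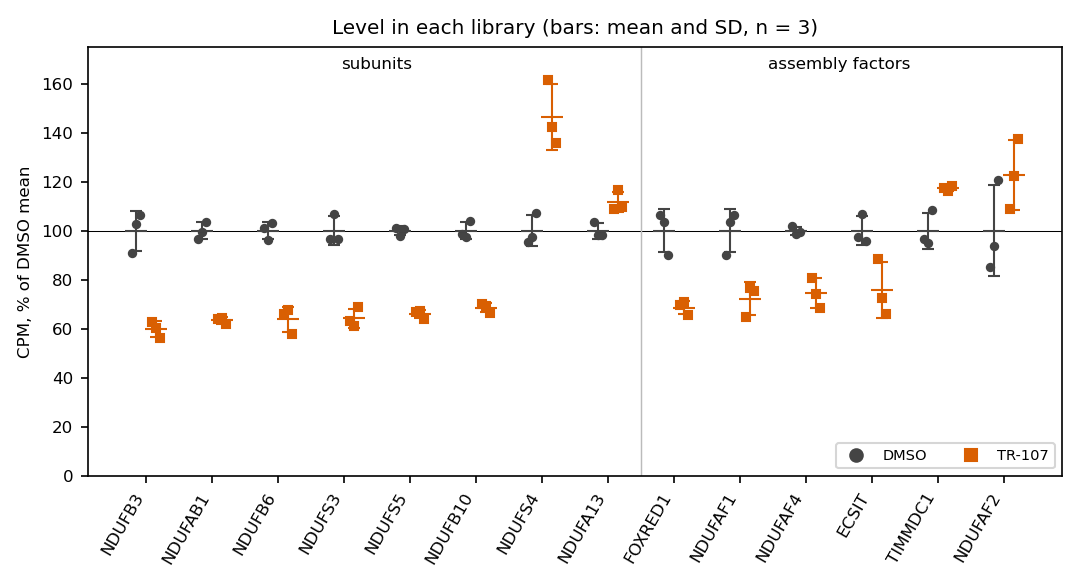
CPM of 8 subunits and 6 assembly factors in each library as a percentage of the gene's DMSO mean, with grey circles for DMSO, orange squares for TR-107 and bars for the mean and SD of 3 libraries; the vertical axis starts at 0. The first 6 subunits and first 4 assembly factors are below the DMSO range in every TR-107 library, NDUFS4, NDUFA13 and TIMMDC1 are above it, and NDUFAF2 overlaps it.

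Sizes of change varied within modules. The 17 lower subunits spanned log2 fold changes of -0.74 to -0.12, with 12 of them at or below -0.40, and the 15 subunits not called spanned -0.18 to 0.13. The 8 lower assembly factors spanned -0.54 to -0.25, with 4 at or below -0.40. Groups overlapped for 3 of the 17 lower subunits and for 0 of the 8 lower assembly factors. SEs were 0.05 to 0.14 over the tested members, the lowest count of a tested member in any library was 172, and on simulated counts 30.0% of 1.2-fold and 92% of 1.5-fold changes were called. Changes of the size of NDUFC2 (1.13-fold) or NDUFAF7 (1.14-fold) were smaller than any simulated. The simulation changed 200 genes, whereas 57.8% of all genes tested were called in the data, so its shares need not hold here. NDUFB8, at 1.11-fold with an SE of 0.05, was called, and NDUFC2, with an SE of 0.12, was not. A member that was not called is thus not shown to be unchanged.

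Levels between genes are compared per length. The length is that of all annotated exons of a gene merged, which may exceed the transcript expressed, so ranks depend on the annotation. On the scale of CPM per kb of exon in DMSO, NDUFS5 was highest at 252, followed by NDUFB10 at 130 and NDUFB7 at 108, and all 3 were lower in TR-107 (167, 89.1 and 77.0). NUBPL was the lowest tested member at 1.63. The median level was 22.3 CPM per kb for the 36 subunits, 2 of them untested and near 0, and 13.8 for the 14 assembly factors. Across the 34 tested subunits, the log2 fold change had a Pearson r of -0.18 and a Spearman rho of -0.11 with mean DMSO CPM. With exonic length r was 0.38 and rho 0.47, and with coding length r was 0.19 and rho 0.22. Across the 14 assembly factors the signs were opposite, at r -0.20 and rho -0.051 with exonic length and r -0.30 and rho -0.41 with coding length. These are descriptions over genes that share the same 6 libraries, and genes are not independent replicates.

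RefSeq promoters were at hand for 44 of the 50 members, and their motifs are described over 250 bases before to 50 after each start, both strands, taking all annotated starts of a gene. The NRF1 letters were found in 15 of 44 members (34.1%), against 14.2% of all 27305 genes with a promoter and 25.8% of the 9998 with at least 10 counts in every library. They stood in 9 of 23 lower members (39.1%, NDUFAB1 among them), 4 of 15 not called and 0 of 4 higher members. ETS letters stood in 8 of 44 (18.2%), against 12.2% and 22.8%, and the YY1 letters in 8 of 44 (18.2%), against 3.52% and 6.66%. By call, ETS letters stood in 5 of 23 lower, 1 of 15 not called and 2 of 4 higher members. For YY1 letters these were 3 of 23, 2 of 15 and 1 of 4. No tie between a motif and a call was tested. In all 8 members with YY1 letters, NDUFS4 among them, the match began 9 to 25 bases after a start. The ATF4/CHOP letters stood in 2 of 44 (4.55%), against 4.46% and 2.56%. A match is a run of letters and not a shown binding site.

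The transcripts of a list of regulators of respiratory chain genes, NRF1, GABPA and YY1 among them, were also measured. Of 8 tested, 5 were lower and 0 higher (median -0.33), against 28.6% lower and 29.2% higher over all genes tested. PPARGC1B, a coactivator of mitochondrial biogenesis, fell from 40.0 ± 2.95 to 19.3 ± 2.42 CPM (SD, n = 3; edgeR adjusted p = 1.38e-12). NRF1 had a log2 fold change of -0.29 and YY1 of -0.37, while GABPA (-0.16) was not called. PPARGC1A had 0 counts in all libraries. ATF4 and DDIT3 (CHOP), named for the ATF4/CHOP letters, are outside this list and were called higher, at 0.96 and 4.04. Any part of these genes in the members' changes was not tested.

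The 7 complex I subunits that mitochondrial DNA encodes were all called, against 57.8% of all genes tested. Of these subunits, 5 were lower and 2 higher (median -0.27). MT-ND1 fell from 1741 ± 104 to 1080 ± 54.4 CPM and MT-ND4 from 4456 ± 228 to 3097 ± 184 CPM (SD, n = 3; edgeR adjusted p = 2.18e-17 and 1.68e-13). MT-ND2 rose from 2829 ± 149 to 3497 ± 252 CPM (SD, n = 3; edgeR adjusted p = 6.91e-06). Set beside their modules, the ND4 module's nuclear genes had a median of -0.22 and MT-ND4 was at -0.52. The ND2 module's nuclear genes had a median of -0.19 and MT-ND2 was at 0.31. MT-ND1 was at -0.69 beside a nuclear median of -0.13, and MT-ND5 at -0.22 beside -0.15. MT-ND3, MT-ND4L and MT-ND6, which were not assigned to a module here, were at 0.18, -0.27 and -0.27. Poly(A) selection captures most mitochondrial transcripts through their short tails, and tail length was not measured here.

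Of 9 further genes with a role in complex I assembly, 4 were lower, 2 higher and 3 not called (median -0.16). AIFM1, a flavoprotein of the intermembrane space needed to make complex I, fell from 68.2 ± 2.87 to 40.1 ± 1.09 CPM (SD, n = 3; edgeR adjusted p = 8.99e-13), at -0.77 on the log2 scale, next to NDUFB3 at -0.74. TMEM70 was at -0.64 and DMAC2 at -0.58. Of 13 genes that make and deliver iron-sulfur clusters, 7 were lower (53.8%) and 3 higher (23.1%). The shares over all genes tested were 28.6% and 29.2%. The desulfurase NFS1 was at -0.67 and GLRX5 at -0.42, while the scaffold ISCU rose from 68.2 ± 2.85 to 110.3 ± 3.81 CPM (SD, n = 3), at 0.69.

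Among the other complexes, 4 of 4 nuclear subunits of complex II were lower (median -0.30), 8 of 9 of complex III (median -0.25), 4 of 11 of complex IV (median -0.09) and 14 of 16 of ATP synthase (median -0.33). Complex I subunits, with 17 of 34 lower, lay between complex IV and the rest by share. All of these share the same 6 libraries, and no difference between the lists was tested.

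**Figure D4:**
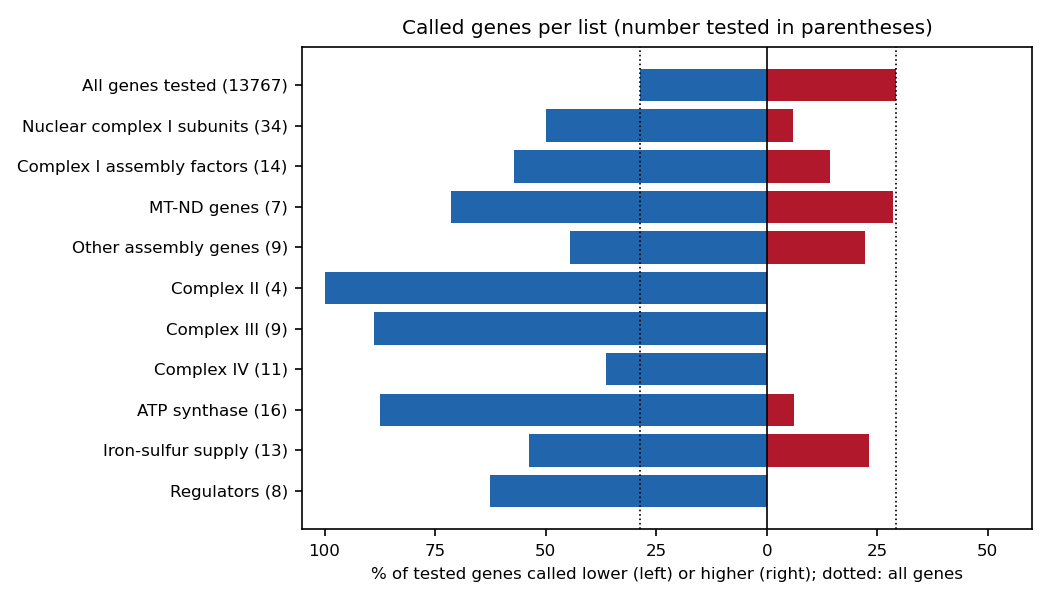
Share of tested genes called lower (blue, to the left) and higher (red, to the right) in each list, as a percentage of the number tested given in parentheses, with dotted lines at the shares over all genes (28.6% lower, 29.2% higher). Complex I subunits (50.0%) and assembly factors (57.1%) lie left of the lower dotted line and short of the higher one (5.88% and 14.3%).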

How the data were processed

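Poly(A)-selected RNA of 6 HCT116 libraries (3 DMSO, 3 TR-107) was measured. The authors deposited raw counts of reads for each gene ID, made with featureCounts after FastQC, Trimmomatic and HISAT2 on hg38, per the submitters' processing notes. For tool versions, annotation, strand and multi-mapping settings, the entry is: not given in the sources used here. Therefore reads of pseudogenes (18 members have 1 or more) and overlapping genes may be split. Of 28395 IDs, 27745 matched a symbol in RefSeq's GRCh38.p14 gene table. Unmatched IDs (0.0390% to 0.0502% of counts) stayed in the fit.

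Groups came from the labels. Counts were fitted over all genes with edgeR 4.0.16 in R 4.3.3 (TMM, filterByExpr, robust quasi-likelihood, group only), with Benjamini-Hochberg adjustment at 0.05. CPM use TMM-scaled library sizes and a sum of CPM has no test. Lengths and overlaps are from the GENCODE annotation. Replicates were not duplicates (chi-square per degree of freedom 3.92 to 6.05). On simulated counts of 13580 genes for TR-107 against DMSO, 30.0%, 92%, 100.0% and 100.0% of 1.2, 1.5, 2 and 4-fold changes were called, and 0.0747% of unchanged genes. Alternatives were other scaling factors, other filters, MT genes left out before scaling, a replicate block, DESeq2 1.42.0, limma-voom (limma 3.58.1) and leaving out each library.

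Members, modules, other lists and the rule for named genes were chosen with earlier results of these data known. Values in every library are given for the 6 lowest and 6 highest called subunits and the 4 lowest and 4 highest called assembly factors (mean of at least 5 CPM), for core subunits, for MCIA factors and for NDUFAF2. There were 2 subunits and 2 assembly factors to fill the places for higher genes. Per-library values of NDUFA8, NDUFA9 and NDUFAF8, the genes next to NDUFA3 and NDUFA6, and regulators chosen as examples were added after their values were seen. Protein sequences were not used here, and plots were drawn with matplotlib 3.10.9.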

Additional observations from a re-analysis of the deposited data

How the results depend on the processing

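Under 15 alternatives, 17 lower subunits became 15 to 21, 8 lower assembly factors 6 to 8, and 7956 called genes 7323 to 8021. The 2 higher subunits became 1 with library size alone (and 1 to 2 when leaving out a library each), and the 2 higher assembly factors 1 with library size alone and with DESeq2 (1 to 2 when leaving out a library each). The subunit median was -0.22 and the assembly factor median -0.31 with library size alone, and -0.20 to -0.15 and -0.28 to -0.18 when leaving out a library each. The ND1 module's median turned to 0.16 with no filter, where NDUFA3, at 0 or 1 count, enters the list. The median of all genes turned to -0.052 with library size alone and to -0.00183 with no filter. Of the tested members, 20 of 25 lower, 2 of 4 higher and 13 of 19 not called had the same call under every alternative. With the replicate block, 17 subunits were lower and 2 higher, 8 assembly factors lower and 2 higher, and 7918 genes called. Same-numbered libraries did not deviate together (correlations -0.031, -0.018 and 0.049). These values show no shared deviation by number and cannot say whether such libraries were prepared together. With 3 libraries a group, 30.0% of 1.2-fold changes were called on simulated counts.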

Other observations

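The 2 members that could not be tested are listed near 0 together with some of their neighbours, which were looked up after the values were seen. NDUFA6, an accessory N module subunit on chromosome 22, had 1 count in all over 6 libraries. The gene before it, SMDT1, which encodes a regulator of the mitochondrial calcium uniporter, had 0, whereas RRP7A nearby had 10016. NDUFA3, on chromosome 19, had 4 counts over 6 libraries. Its neighbours TFPT and PRPF31, the latter a core splicing factor, had 39 and 69, LENG1 and TMC4 had 1 each, and CNOT3 had 1682. ATP5F1E of ATP synthase was likewise listed at 0.368 CPM in DMSO and 0.335 CPM in TR-107, while the other 16 subunits of that list were tested. What keeps these genes near 0 was not tested, and a count near 0 in these files is not read as absent expression.

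NDUFS4, the subunit with the highest fold change, has no annotated pseudogene and no overlapping exon of another gene. Exons of another gene on the same strand overlap 14 members, and exons on the opposite strand 23. On the same strand the largest shares of exonic length are 33.8% for NDUFB8, 32.3% for NDUFA7, 28.4% for NDUFV2 and 21% for NDUFA13. On the opposite strand they are 49.1% for NDUFS7, 44.9% for NDUFB11 and 44.5% for NDUFA1.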
